A study of Mus musculus with 12 samples.

Results

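Transcript levels of 10 genes of the cyclin D, CDK4/6 and CDK inhibitor system were measured in SVR xenograft tumors by RNA sequencing. The genes were taken by name, namely the D cyclins Ccnd1, Ccnd2 and Ccnd3, the kinases Cdk4 and Cdk6, the inhibitors Cdkn1a (p21), Cdkn1b (p27), Cdkn2c (p18) and Cdkn2d (p19), and the pocket protein gene Rb1. They are 10 of 54232 genes in the deposited table, and all 10 were among the 12897 genes with enough counts to be tested. SVR is a mouse endothelial cell line, transformed with SV40 large T antigen and activated H-ras, that serves as a model of angiosarcoma, a cancer of endothelial cells, and its strain label was C57BL/6. All tumors were grown from this single line under the skin of athymic nude mice, which lack mature T cells. The control group received vehicle, the trametinib group the MEK inhibitor trametinib at 1 mg/kg, the cediranib group the VEGF receptor inhibitor cediranib at 3 mg/kg, and the combination group both drugs at these doses, by daily gavage. By the labels, treatment ran until ulceration or a size limit. The study also describes an experiment in which all tumors were taken at a shared time, and from which experiment the sequenced tumors came was not given. Each of the 4 groups held 3 tumors, so the p-values describe only the spread between these tumors. Time on treatment was likewise not given per tumor.

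The D cyclins bind and activate CDK4 and CDK6, and these kinases phosphorylate RB, which then releases the E2F factors that drive entry into S phase. Cyclin D1 is a classical output of RAS, MEK and ERK signaling, which trametinib blocks, and cyclin D2 and cyclin D3 are its close relatives. The INK4 inhibitors, here p18 and p19, bind CDK4 and CDK6 themselves, whereas the CIP/KIP inhibitors p21 and p27 bind complexes of cyclins and CDKs. SV40 large T antigen binds RB and p53, so SVR cells carry a viral protein that acts on the same pathway downstream of the genes described here.

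The libraries held between 9478865 and 11666094 counts, and the biological coefficient of variation was 27.2%. RNA came from whole tumors, and tumor cells, stroma and skin are all mouse, so that fewer cells of a type and less RNA per cell cannot be told apart. The 12 endothelial markers, such as Pecam1 and Cdh5, were all detected in the control group and summed to 212 to 447 CPM (counts relative to the scaled library total) in control tumors, 127 to 336 in cediranib treated, 53 to 114 in trametinib treated (with Emcn at 0 in every tumor) and 36 to 88.1 in combination treated tumors. Epidermal markers summed to 24.9 to 645 CPM in control, 4.76 to 11.6 in trametinib treated (with 9 of the 22 genes at 0 in every tumor), 47.2 to 2950 in cediranib treated and 3070 to 4600 in combination treated tumors. Skeletal muscle markers reached 20300 CPM in control tumor 2 and 31500 in trametinib tumor 2, and stayed at or below 2440 in the other tumors. Hair follicle markers summed to 7.74 to 12.4 CPM in control, 30.2 to 37.6 in trametinib treated, 5.68 to 652 in cediranib treated and 239 to 518 in combination treated tumors. Fibroblast markers summed to 2230 to 21200 CPM in control, 8850 to 37100 in trametinib treated, 1760 to 6800 in cediranib treated and 3130 to 5930 in combination treated tumors. Macrophage markers summed to 392 to 687 CPM in control, 307 to 438 in trametinib treated, 286 to 448 in cediranib treated and 180 to 318 in combination treated tumors. T cell markers summed to at most 8.61 CPM. The part of these tissues in the results below was not tested. Values are also given with the epidermal score (the mean log2 CPM of 14 epidermal genes) as a covariate or without the 2 muscle-rich tumors. The score lay between -1.71 and -1.56 in trametinib treated and between 2.82 and 3.41 in combination treated tumors. It lay between -0.65 and 1.13 in control and between -0.54 and 2.80 in cediranib treated tumors. Only these last 2 groups overlapped. In each comparison of a group given trametinib with another group, the score and the treatment therefore cannot be told apart. With the score as a covariate, genes of all tested past the FDR went from 125 to 0 for combination against trametinib, from 1286 to 78 for combination against control, from 1116 to 133 for trametinib against cediranib, from 990 to 553 for combination against cediranib and from 788 to 684 for trametinib against control.

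Compared per kilobase of exon, Cdk4 had the highest level of the 10 genes in each group. In control tumors its mean was 165 ± 6.25 CPM per kilobase (SD, n = 3). Ccnd1 followed with 21.0 ± 2.74 and Cdkn2c with 16.8 ± 2.75, and every control tumor kept the order Cdk4, Ccnd1, Cdkn2c without overlap. Cdkn1b (4.84 ± 1.13), Cdk6 (3.27 ± 1.12), Ccnd3 (3.01 ± 0.113) and Rb1 (2.52 ± 0.619) formed a middle set in which each gene overlapped its neighbor in this order. Cdkn2d (0.851 ± 0.711), Cdkn1a (0.56 ± 0.148) and Ccnd2 (0.382 ± 0.227) were lowest and overlapped in the same way. In trametinib treated tumors the order was different. Cdkn2c was next to Cdk4 with 39.9 ± 10.1 CPM per kilobase, Cdkn1b came next with 7.58 ± 1.27, and Ccnd1 with 4.28 ± 0.695 was below Cdkn1b in each of the 3 tumors. In combination treated tumors Cdkn2c (39.8 ± 9.2) was again next to Cdk4 (145 ± 25.8), while Ccnd1 (6.91 ± 0.586) and Cdkn1b (6.28 ± 0.865) overlapped. In cediranib treated tumors Ccnd1 (23.7 ± 3.15) and Cdkn2c (18.6 ± 5.16) overlapped. Libraries were made by exome capture, so probe yield also enters a gene's level per kilobase.

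Positions are those of the deposited table on GRCm38, for which the strand setting was not given in the sources used here. Reads from overlapping genes on the opposite strand could therefore be shared. This limit is largest for Rb1 (chr14:73183673-73325822), whose 2111 counts over the 12 libraries stand beside 3698 for the overlapping Rcbtb2. Ccnd3 (chr17:47505051-47598863) had 3309 counts beside 1796 for Bysl. Cdk4 (chr10:127063534-127067920) had 65587 beside 3357 for Tspan31, Cdk6 (chr5:3341485-3531008) 5920 beside 763 for Gm17590, and Ccnd1 (chr7:144929931-144939925) 8218 beside 278 for LTO1. Cdkn1b (chr6:134920401-134925320), Cdkn2c (chr4:109660876-109667189) and Cdkn2d (chr9:21288410-21291407) had no such neighbor in GENCODE M21. The longest identical stretch shared by transcripts of related genes of the set ran from 13 bases (Cdkn2c with Cdkn2d) to 23 bases (Cdkn1a with Cdkn1b).

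**Figure D1:**
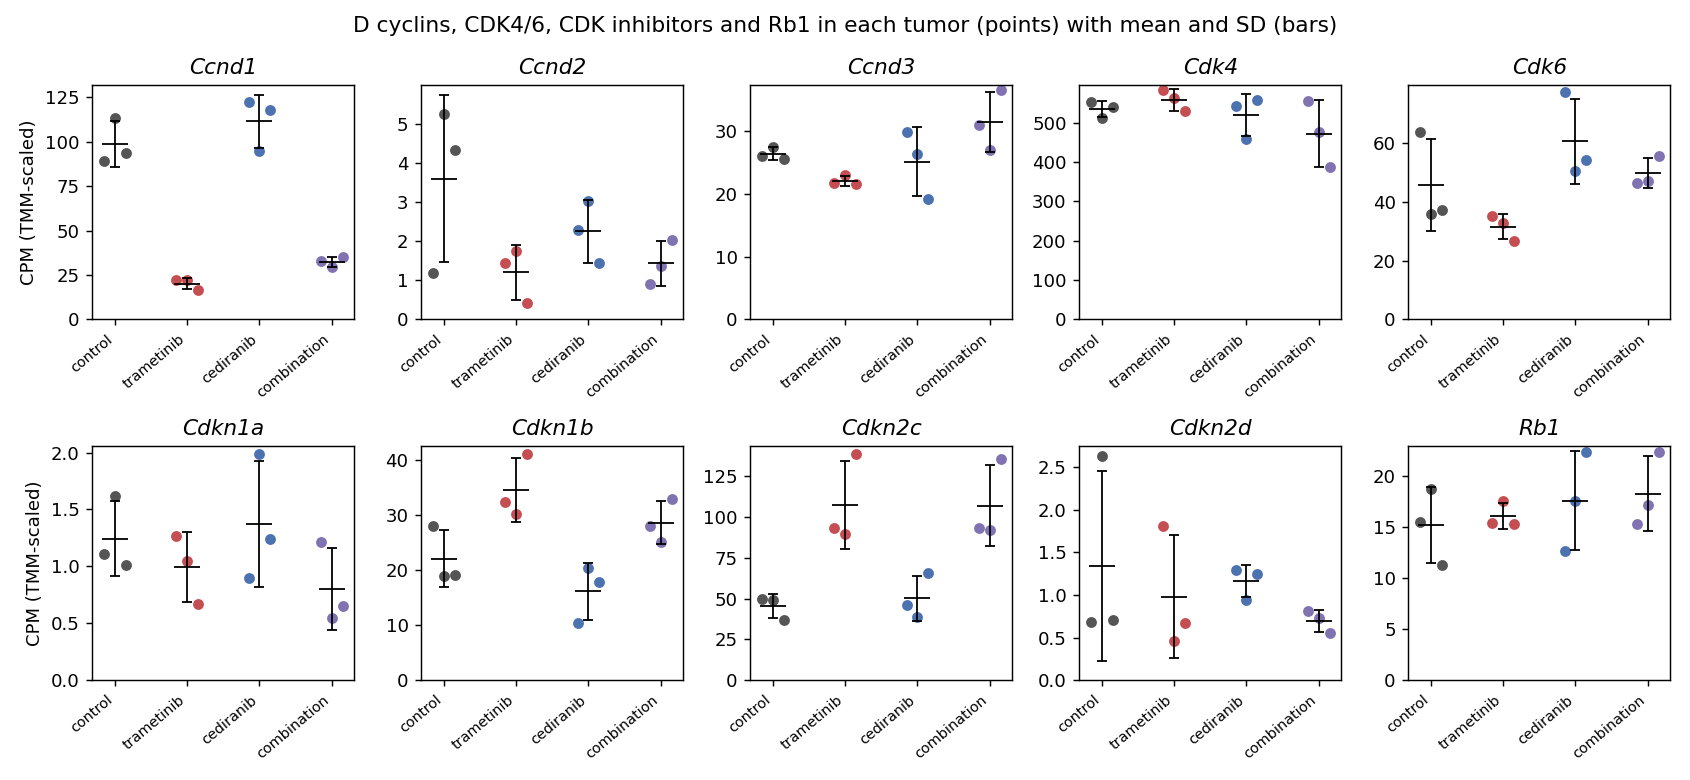
CPM (scaled by TMM) of each of the 10 genes in the 3 tumors of each treatment group (points), with the mean and SD (bars), each panel with its own vertical axis from 0. Ccnd1 lies at 16.4 to 35.1 CPM in the trametinib and combination groups and at 89.3 to 122 in the control and cediranib groups, and Cdkn2c lies at 89.7 to 138 against 36.7 to 65.4.

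Ccnd1, which encodes cyclin D1, fell in tumors given trametinib, with or without cediranib. It was measured at 89.3, 113 and 93.4 CPM in control tumors and at 22.0, 22.1 and 16.4 CPM in trametinib treated tumors. Cediranib treated tumors had 122, 94.6 and 118 CPM, and combination treated tumors had 32.9, 29.6 and 35.1 CPM. Every trametinib or combination treated tumor was below every control and cediranib treated tumor, and all 3 combination treated tumors were above all 3 trametinib treated tumors. Against control, Ccnd1 fell by 2.29 on the log2 scale with trametinib (SE 0.161; edgeR quasi-likelihood test, Benjamini-Hochberg FDR 1.83e-05), a 4.9-fold difference that ranked 5 among the 12897 genes tested by p. With the combination it fell by 1.6 (SE 0.157, edgeR FDR 0.000369), a 3.03-fold difference that ranked 9. The combination value lies near the fold limit of 1.5 used for a call, and without control tumor 2 it was -1.49. Endothelial markers were lower in the same tumors, as given above, and their part in the change of Ccnd1 was not tested.

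Ccnd2, which encodes cyclin D2, was scarce throughout. Its values were 1.19, 5.26 and 4.34 CPM in control tumors, 1.45, 1.74 and 0.418 in trametinib treated, 2.29, 3.02 and 1.43 in cediranib treated and 0.907, 1.36 and 2.04 in combination treated tumors. Control tumor 1 lay within the range of the trametinib treated tumors, so the groups overlapped. The difference between trametinib treated and control tumors was -1.59 on the log2 scale with a 95% interval from -2.90 to -0.28 (edgeR FDR 0.156), which did not pass. With no filter on low counts the same difference passed (edgeR FDR 0.0164).

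Ccnd3, which encodes cyclin D3, varied over a smaller range. It stood at 26.1, 27.5 and 25.6 CPM in control tumors, 21.8, 23.0 and 21.6 in trametinib treated, 29.9, 26.3 and 19.2 in cediranib treated and 31.1, 27.0 and 36.5 in combination treated tumors. All trametinib treated tumors were below all control and all combination treated tumors. The difference between trametinib treated and control tumors was -0.26 (SE 0.170, edgeR FDR 0.439), and that between combination and trametinib treated tumors was 0.51 (SE 0.169, edgeR FDR 0.151), so neither passed.

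The makeup of the D cyclin pool differed between groups. Summed over the 3 genes, D cyclin transcripts came to 24.4 ± 3.02 CPM per kilobase in control tumors, 6.93 ± 0.826 in trametinib treated, 26.8 ± 3.15 in cediranib treated and 10.7 ± 1.16 in combination treated tumors. Ccnd1 made up 86.0% ± 0.634 of this sum in control tumors and 61.6% ± 3.03 in trametinib treated tumors, with 88.3% ± 2.86 after cediranib and 65.0% ± 1.70 after the combination. The share of Ccnd3 was 12.5% ± 1.10 in control, 36.7% ± 3.87 in trametinib treated, 10.8% ± 2.48 in cediranib treated and 33.6% ± 1.43 in combination treated tumors. Ccnd2 contributed between 0.917% and 1.77% on average. The shares of Ccnd1 and Ccnd3 in trametinib and combination treated tumors did not overlap those in control and cediranib treated tumors. They follow from the fall of Ccnd1 described above and are not a separate result. Which D cyclin led in trametinib treated tumors depended on the scale, since in CPM not divided by length Ccnd3 took 51.1% and Ccnd1 46.2%.

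**Figure D2:**
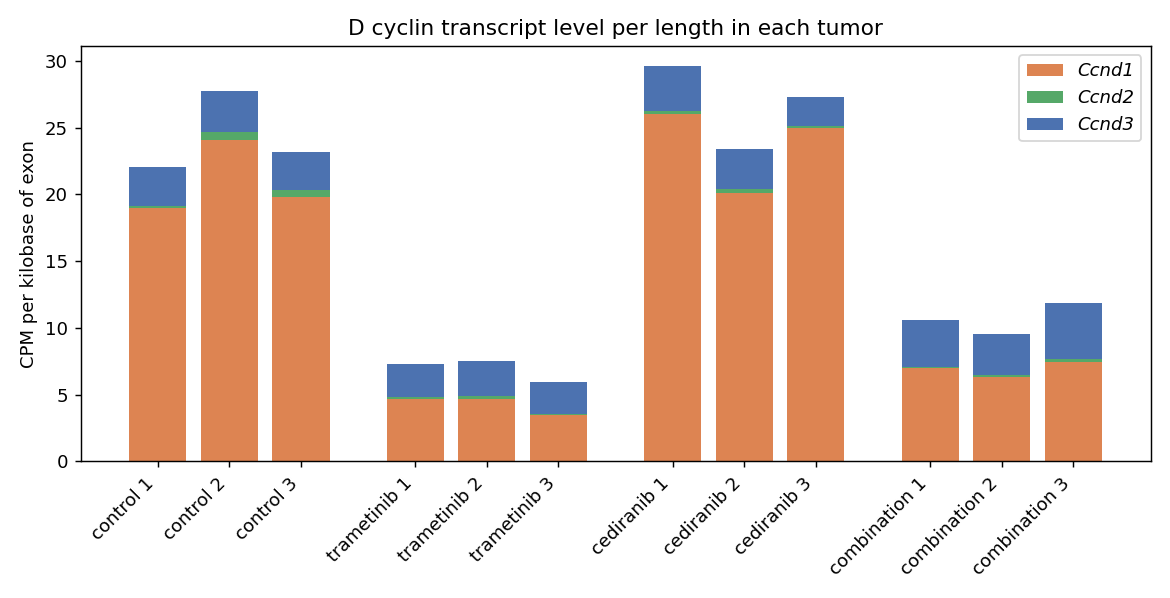
Level of the 3 D cyclin genes in CPM per kilobase of exon, stacked for each of the 12 tumors (bars, grouped by treatment). The stacks reach 22.1 to 29.6 in control and cediranib treated tumors and 5.98 to 11.8 in trametinib and combination treated tumors, and the Ccnd3 segment takes a larger part of the shorter stacks.

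Cdk4, a kinase partner of the D cyclins and the gene with the highest level of the set, passed in no comparison. It was measured at 552, 513 and 539 CPM in control tumors, 584, 562 and 529 in trametinib treated, 542, 460 and 558 in cediranib treated and 554, 476 and 386 in combination treated tumors. Combination tumor 3 was the lowest, and each treated group overlapped the control group. The difference between trametinib treated and control tumors was 0.06 on the log2 scale, with a 95% interval from -0.23 to 0.35 (edgeR FDR 0.853).

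The promoter of Cdk4 is shown because this gene had by far the highest level and did not pass any comparison. The sequence covers the bases before the first exon on the plus strand (RefSeq, GRCm38.p6, chr10:127063285-127063533), and capitals mark the E-box CACGTG, a palindrome bound by MYC and MAX among other factors.
Cdk4: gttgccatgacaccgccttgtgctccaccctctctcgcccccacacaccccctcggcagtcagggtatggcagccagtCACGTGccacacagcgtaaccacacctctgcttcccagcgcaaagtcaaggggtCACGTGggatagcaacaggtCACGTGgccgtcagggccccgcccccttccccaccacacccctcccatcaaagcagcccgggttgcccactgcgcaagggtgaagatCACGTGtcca
The window held 4 E-boxes, which began 172, 118, 98 and 11 bases before the RefSeq start. At least 1 E-box stood in 6.02% of 32817 promoter windows of the same length, and at least 4 stood in 7 of them (0.0213%). A match of letters is a description and not a binding site.

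Cdk6, the other kinase partner of the D cyclins, varied more. Its levels were 63.9, 36.0 and 37.2 CPM in control tumors, 35.1, 32.7 and 26.8 in trametinib treated, 77.2, 50.3 and 54.2 in cediranib treated and 46.5, 47.0 and 55.7 in combination treated tumors. Trametinib treated tumors were below the tumors of each other group without overlap. Against cediranib treated tumors Cdk6 fell by 0.94 with trametinib (SE 0.232, edgeR FDR 0.0277), whereas against control the difference was -0.54 (SE 0.231, edgeR FDR 0.21). Control tumor 1 and cediranib tumor 1 had the highest Cdk6 levels of all tumors, with epidermal markers at 645 and 2950 CPM. Combination treated tumors, with the most epidermal markers (3070 to 4600 CPM), had lower Cdk6 than control tumor 1, and cediranib tumor 2, with 47.2 CPM of these markers, had 50.3 CPM of Cdk6. With the epidermal score as a covariate the difference between trametinib and cediranib treated tumors was -0.31 (edgeR FDR 0.703). The score separates these 2 groups completely and cannot be told apart from the treatment, and the part of epidermis in Cdk6 was not tested. The difference between these 2 groups also did not pass when trametinib tumor 1 (-1.03, edgeR FDR 0.0538), trametinib tumor 2 (-0.97, FDR 0.0701), trametinib tumor 3 (-0.84, FDR 0.103) or cediranib tumor 1 (-0.73, FDR 0.117) was left out, nor without the 2 muscle-rich tumors (-0.97, FDR 0.069).

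Cdkn2c, the INK4 inhibitor p18, rose in tumors given trametinib. Control tumors had 49.99, 48.97 and 36.71 CPM and trametinib treated tumors 93.4, 89.7 and 138 CPM. Cediranib treated tumors had 46.3, 38.5 and 65.4 CPM, and combination treated tumors 93.4, 91.9 and 135 CPM. Every trametinib or combination treated tumor was above every control and cediranib treated tumor, and in both of these groups tumor 3 was the highest. Cdkn2c rose by 1.24 on the log2 scale with trametinib against control (SE 0.24, edgeR FDR 0.00993), a 2.37-fold difference, and by 1.24 with the combination (SE 0.24, edgeR FDR 0.00978). Both values stayed under the fold limit of 1.5 for a call. The difference between combination and trametinib treated tumors was -0.00, with a 95% interval from -0.52 to 0.51. With the epidermal score as a covariate the rise against control was 1.49 for trametinib (edgeR FDR 0.00995) and 0.78 for the combination, which then did not pass (edgeR FDR 0.44). In that setting genes of all tested past the FDR went from 1286 to 78 for combination against control. The score separates both groups given trametinib completely from control and cediranib treated tumors, so values with it do not test the part of epidermis. Against cediranib treated tumors Cdkn2c rose by 1.10 with trametinib (edgeR FDR 0.0161) and by 1.09 with the combination (edgeR FDR 0.0187). The rise with the combination did not pass without cediranib tumor 1 (1.04, edgeR FDR 0.0722), cediranib tumor 2 (0.93, FDR 0.0663) or combination tumor 3 (0.89, FDR 0.07), or with the epidermal score (0.90, FDR 0.0749). That with trametinib did not pass without trametinib tumor 3 (0.87, edgeR FDR 0.0682) or cediranib tumor 1 (1.05, FDR 0.0697), or with the epidermal score (1.61, FDR 0.0833).

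Cdkn1b, the CIP/KIP inhibitor p27, was higher in trametinib treated tumors without passing against control. It stood at 28.0, 18.9 and 19.2 CPM in control tumors, 32.4, 30.1 and 41.0 in trametinib treated, 10.4, 20.3 and 17.9 in cediranib treated and 27.9, 25.0 and 32.8 in combination treated tumors. All trametinib treated tumors were above all control tumors, and combination treated tumors overlapped control tumor 1. The difference between trametinib treated and control tumors was 0.65 (SE 0.245, edgeR FDR 0.155) and that between combination treated and control tumors was 0.37 (edgeR FDR 0.354). Against cediranib treated tumors Cdkn1b rose by 1.09 with trametinib (SE 0.248, edgeR FDR 0.0197). This rise did not pass with the epidermal score as a covariate (0.93, edgeR FDR 0.338), without trametinib tumor 3 (0.95, edgeR FDR 0.0752) or without cediranib tumor 1, the tumor with the lowest Cdkn1b (0.86, edgeR FDR 0.0614).

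The sequences before a start of these 2 inhibitor genes are shown because both genes were higher in trametinib treated than in cediranib treated tumors. They come from RefSeq on GRCm38.p6, with the plus strand of chr6:134920151-134920400 for Cdkn1b and the minus strand of chr4:109665373-109665609 for Cdkn2c, the latter at its downstream start, within an intron of the longer transcript. Capitals mark the GC box, GGGCGG on either strand, the motif of SP1 and related factors.
Cdkn1b: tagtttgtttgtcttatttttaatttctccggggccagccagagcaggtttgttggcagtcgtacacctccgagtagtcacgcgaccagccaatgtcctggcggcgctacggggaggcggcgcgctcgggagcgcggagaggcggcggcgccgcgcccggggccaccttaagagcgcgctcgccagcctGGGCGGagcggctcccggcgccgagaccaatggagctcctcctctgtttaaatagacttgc
Cdkn2c: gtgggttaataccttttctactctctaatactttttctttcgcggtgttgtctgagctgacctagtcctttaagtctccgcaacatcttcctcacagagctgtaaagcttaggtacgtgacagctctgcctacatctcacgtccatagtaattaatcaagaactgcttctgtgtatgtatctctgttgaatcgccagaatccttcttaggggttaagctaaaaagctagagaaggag
The Cdkn1b window held 1 GC box and the Cdkn2c window shown held 0, while the window at the upstream start of Cdkn2c held 3, and 32.7% of all windows held at least 1. Windows were found for 7 of the 10 genes, 10 windows in all, and were searched on both strands for 4 further motifs besides the GC box. The FOXO motif TGTTTAC stood in a Ccnd3 window, 243 bases before the start (3.16% of all windows), and the E2F motif TTTNNCGC in the Cdk6 window (4.28% of all windows). An E-box also stood in the Cdk6 window, and the AP-1 motif TGANTCA was in none of the 10 windows (6.75% of all windows), which says only that these letters are not there.

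Cdkn1a, the p53 target p21, and Cdkn2d, the INK4 inhibitor p19, were near the limit of what these libraries measure, at which 3 counts correspond to 0.251 to 0.349 CPM. Cdkn1a had 1.11, 1.62 and 1.01 CPM in control tumors, 1.27, 1.05 and 0.669 in trametinib treated, 0.898, 1.98 and 1.24 in cediranib treated and 1.21, 0.544 and 0.649 in combination treated tumors. The groups overlapped throughout, and against control the 95% interval of the trametinib difference ran from -1.34 to 0.69 on the log2 scale. The deposited gene model of Cdkn1a (chr17:29090979-29099527, 2223 bases) is shorter than that of GENCODE M21 (3553 bases), so its counts may miss part of the transcript. Cdkn2d had 0.68, 2.63 and 0.706 CPM in control tumors and 1.81, 0.465 and 0.669 in trametinib treated tumors, with 0.944 to 1.30 after cediranib and 0.556 to 0.807 after the combination. Its trametinib interval ran from -1.75 to 0.92, so that a fall of a few fold, or a smaller rise, stayed within it.

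In tumors given trametinib, with or without cediranib, summed inhibitor transcripts were higher and summed D cyclin transcripts lower than in the remaining tumors. The 4 inhibitors summed to 23.1 ± 3.75 CPM per kilobase in control tumors, 48.5 ± 11.1 in trametinib treated, 23.6 ± 5.27 in cediranib treated and 46.9 ± 9.89 in combination treated tumors. Inhibitor transcripts per D cyclin transcript, both per kilobase, came to 1.16, 0.892 and 0.809 in control tumors and to 5.97, 5.44 and 10.2 in trametinib treated tumors. Gene length and probe yield enter the size of this ratio, and it was not computed in CPM not divided by length. The ratio was 0.7, 0.867 and 1.09 after cediranib and 3.95, 4.25 and 4.92 after the combination. Each trametinib treated tumor was thus above each combination treated tumor, and both groups were above all control and cediranib treated tumors. Cdkn2c and Ccnd1 make up most of the 2 sums, and their own ratio went from 0.809 ± 0.153 in control to 9.79 ± 4.35 in trametinib treated tumors and 5.72 ± 0.924 in combination treated tumors. Cdk4 and Cdk6 together summed to 168 ± 7.17 CPM per kilobase in control, 174 ± 8.86 in trametinib treated, 164 ± 16.7 in cediranib treated and 149 ± 25.5 in combination treated tumors, and these ranges overlapped.

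**Figure D3:**
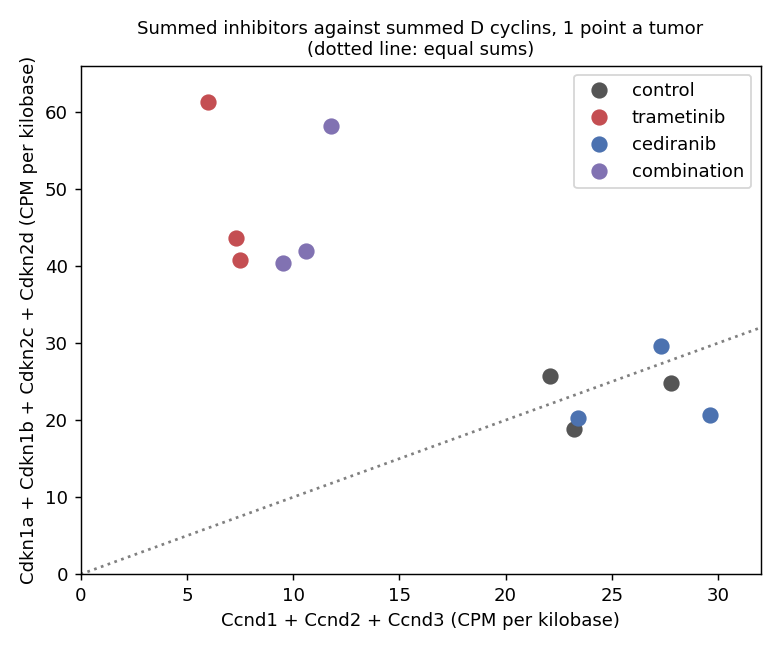
Summed level of the 4 CDK inhibitor genes (vertical axis) against the summed level of the 3 D cyclin genes (horizontal axis), both in CPM per kilobase of exon, 1 point for each tumor colored by treatment, with a dotted line where the sums are equal. Trametinib and combination treated tumors lie at the upper left, with inhibitor sums of 40.4 to 61.3, and control and cediranib treated tumors at the lower right around the line, with 18.8 to 29.6.

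Rb1, which encodes the target of these kinases, was measured at 15.5, 18.7 and 11.3 CPM in control tumors, 15.4, 17.5 and 15.3 in trametinib treated, 12.7, 17.6 and 22.4 in cediranib treated and 15.2, 17.1 and 22.3 in combination treated tumors. The groups overlapped in every comparison. The trametinib difference was 0.08 with a 95% interval from -0.44 to 0.61 (edgeR FDR 0.892).

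The comparison with vehicle asked what each drug alone and both together did to these genes. With trametinib, Ccnd1 fell and Cdkn2c rose, and the other 8 genes did not pass. These 2 of 10 genes past an FDR of 0.05 stand beside 6.11% of all genes tested, and the 1 gene called with the additional limit of 1.5 on the log2 fold change stands beside 2.4%. In 5 of 10 genes (Ccnd1, Ccnd3, Cdk6, Cdkn1b and Cdkn2c) the trametinib and control tumors did not overlap, compared with 25.8% of all genes. With the combination the same 2 genes passed, beside 9.97% of all genes, and 1 was called, beside 3.61%. These 2 were also the genes without overlap, beside 31.3% of all genes. With cediranib alone 0 of 10 genes passed or were called, and 0% of all genes did, and 0 of 10 were without overlap, beside 7.76% of all genes. By edgeR's quasi-likelihood test the smallest FDR among the 10 was 0.999, and at an unadjusted p under 0.05 there were 0 of the 10 and 557 of all genes. The edgeR likelihood ratio test and DESeq2 called 14 and 6 of all genes for cediranib and 0 of the 10. With no filter on low counts edgeR called 324 of 29102 genes and 0 of the 10. The largest cediranib differences by p were those of Cdkn1b, at -0.45 with a 95% interval from -0.98 to 0.09, and Cdk6, at 0.40 with an interval from -0.10 to 0.90. For Ccnd1 the cediranib interval ran from -0.15 to 0.51. The 3 comparisons share the control tumors.

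**Figure D4:**
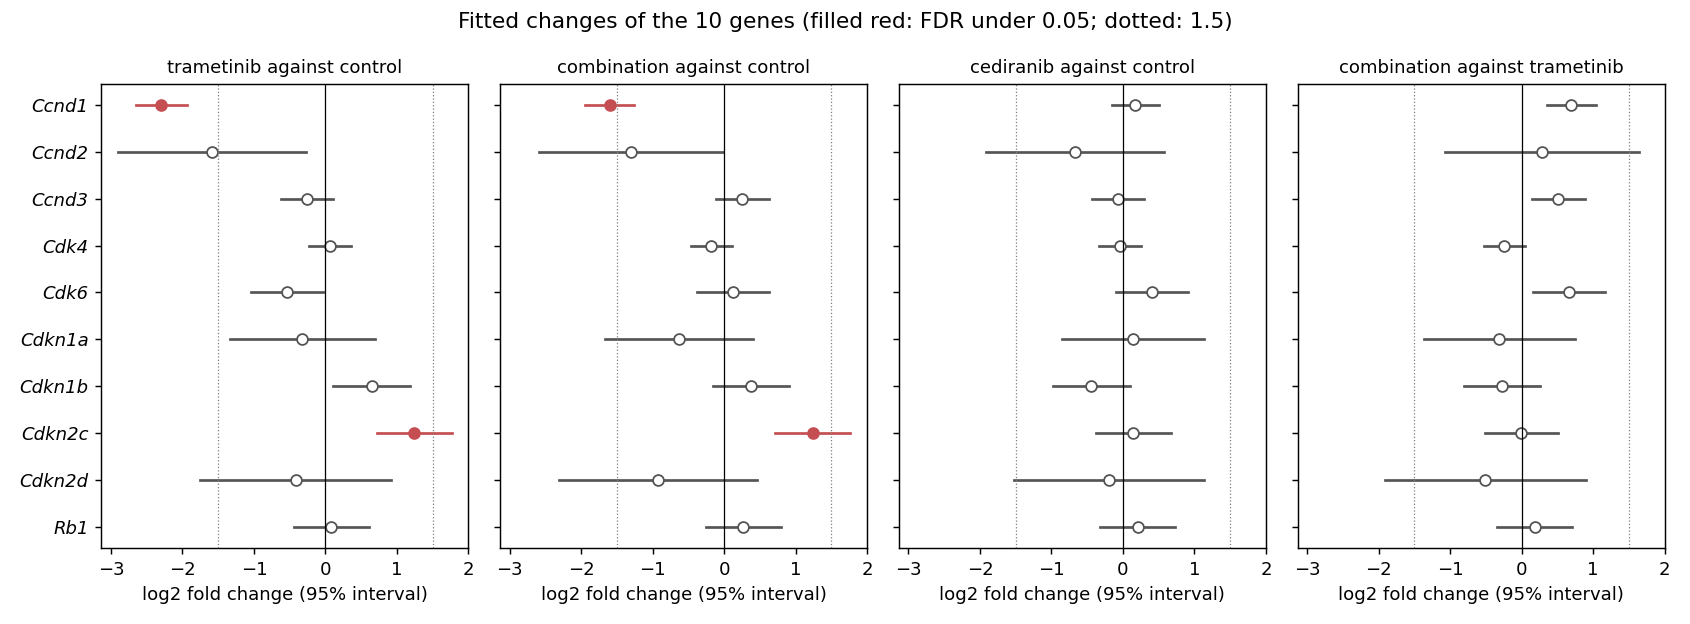
Fitted log2 fold change of each of the 10 genes (points) with its 95% interval (lines) in 4 comparisons, filled red where the FDR was under 0.05, with dotted lines at the fold limit of 1.5. Ccnd1 at -2.29 and -1.6 and Cdkn2c at 1.24 in both are the filled points against control for trametinib and the combination, and the panels for cediranib against control and for combination against trametinib hold open points only.

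The comparison of the combination with trametinib alone asked whether cediranib changed these genes in the presence of trametinib. None of the 10 genes passed or was called, beside 0.969% and 0.675% of all genes, and 3 of 10 (Ccnd1, Ccnd3 and Cdk6, all higher in the combination) were without overlap, beside 24.3% of all genes. Ccnd1 differed by 0.69 (SE 0.157, 95% interval from 0.35 to 1.04), a 1.62-fold difference with an edgeR FDR of 0.062. This value passed with library totals as the scaling (0.83, edgeR FDR 0.0358), with no filter on low counts (edgeR FDR 0.0023), by DESeq2 (adjusted p = 0.00494) and by the edgeR likelihood ratio test (FDR 0.0134). With the epidermal score as a covariate it was 0.44 (edgeR FDR 0.932), a setting in which 0 of all genes passed in this comparison. Library totals moved the median of all genes by 0.129 in this comparison. Cdk6 differed by 0.66 (SE 0.232, edgeR FDR 0.169). It passed in 1 of 15 alternatives, with no filter on low counts (0.685, edgeR FDR 0.00659), and was -0.25 with the epidermal score (edgeR FDR 0.997). The interaction, which compared the cediranib difference with and without trametinib, passed for 0 of 10 genes and 0% of all genes in the edgeR quasi-likelihood test. It was 0.52 for Ccnd1 (edgeR p 0.0356, FDR 0.695) and 0.58 for Ccnd3 (edgeR p 0.0315, FDR 0.685), with 909 genes of all tested at an unadjusted p under 0.05. DESeq2 and the likelihood ratio test passed 38 and 28 of all genes for the interaction and 0 of the 10, and edgeR with no filter on low counts passed 373 of all genes and 0 of the 10.

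Against cediranib treated tumors, Ccnd1 was lower in both groups given trametinib, and these 2 comparisons share the cediranib treated tumors. Ccnd1 fell by 1.78 with the combination (SE 0.157, edgeR FDR 0.000202) and by 2.47 with trametinib (SE 0.162, edgeR FDR 1.78e-05), the latter ranked 2 among all genes. For the combination 2 of 10 genes passed (Ccnd1 and Cdkn2c), beside 7.68% of all genes, 1 was called, beside 2.44%, and 4 were without overlap (these 2, Cdkn1b and Cdkn2d), beside 28.4%. Cdkn1b differed by 0.82 with the combination (SE 0.247, edgeR FDR 0.0655). This difference passed in 3 of 15 alternatives. These were no filter on low counts (0.84, edgeR FDR 0.00282), DESeq2 (0.84, adjusted p = 0.0177) and the edgeR likelihood ratio test (0.82, FDR 0.0354). For trametinib 4 of 10 genes passed (Ccnd1, Cdk6, Cdkn1b and Cdkn2c), beside 8.65% of all genes, 1 was called, beside 3.49%, and the same 4 were without overlap, beside 28.3%.

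Genes around this system were read from 5 lists. Among the 28 tested of 32 other G1/S genes, such as cyclin E2, CDK2, E2F factors and their regulators, 1 fell and 0 rose with trametinib, and 1 fell and 1 rose with the combination, with list medians of -0.02 and -0.06 beside 0.01 and 0.00 for all genes. Of all genes tested, 6.11% and 9.97% passed in these comparisons. The gene that fell in both was Myc, which encodes a transcription factor that drives growth and cell cycle entry. Myc was at 31.8 to 41.3 CPM in control, 15 to 21.7 in trametinib treated and 17.2 to 19.2 in combination treated tumors. It fell by 1.06 (SE 0.169, edgeR FDR 0.00348) and by 1.07 (edgeR FDR 0.00412). Fbxo4, an F-box protein linked to cyclin D1 turnover, rose by 1.10 with the combination (SE 0.204, edgeR FDR 0.00824), from 14.1 to 17.9 CPM in control to 29.0 to 43.0 CPM. With trametinib alone its difference was 0.74 (edgeR FDR 0.0544).

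Of 30 E2F targets, all tested, 0 passed with trametinib in either direction, beside 6.11% of all genes. The list median was 0.21 beside 0.01 for all genes. With the combination 1 rose, beside 9.97% of all genes that passed in either direction, and the list median was -0.06. The gene that rose was Rrm2, a subunit of ribonucleotide reductase that supplies nucleotides for replication, at 190 to 216 CPM in control and 293 to 332 CPM in combination treated tumors (0.64, SE 0.156, edgeR FDR 0.0249). Between combination and trametinib treated tumors 0 of the 30 passed, beside 0.969% of all genes, with a median of -0.14.

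The ERK output list, which contains Ccnd1 and Myc, held the most genes that fell. Of its 21 tested genes 15 fell with trametinib (median -2.26) and 13 with the combination (median -1.44), and 0 rose in either. The shares of all genes past the FDR were 6.11% and 9.97%. With cediranib 0 passed, with a median of -0.00. Egr1, an immediate early transcription factor, went from 86.0 to 87.9 CPM in control to 3.17 to 5.10 in trametinib treated and 7.16 to 10.6 in combination treated tumors, falling by 4.49 and by 3.23 (edgeR FDR 2.15e-06 and 3.91e-05). Dusp6, a phosphatase that restrains ERK, fell by 3.70 with trametinib (SE 0.245), and Etv5, an ETS factor, fell by 3.67 (SE 0.277). With the combination Phlda1 fell by 1.93 (SE 0.202) and Dusp5, another ERK phosphatase, by 2.62 (SE 0.301). Between combination and trametinib treated tumors 5 of the 21 genes were higher and passed, beside 0.969% of all genes that passed in either direction. They were Dusp6 (1.79), Etv4 (1.40), Etv5 (1.58), Egr1 (1.26) and Hmga2 (1.10), with edgeR FDRs between 0.0196 and 0.0388. The list median was 0.88 beside -0.01 for all genes. Ccnd1, at 0.69, lay below this median.

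**Figure D5:**
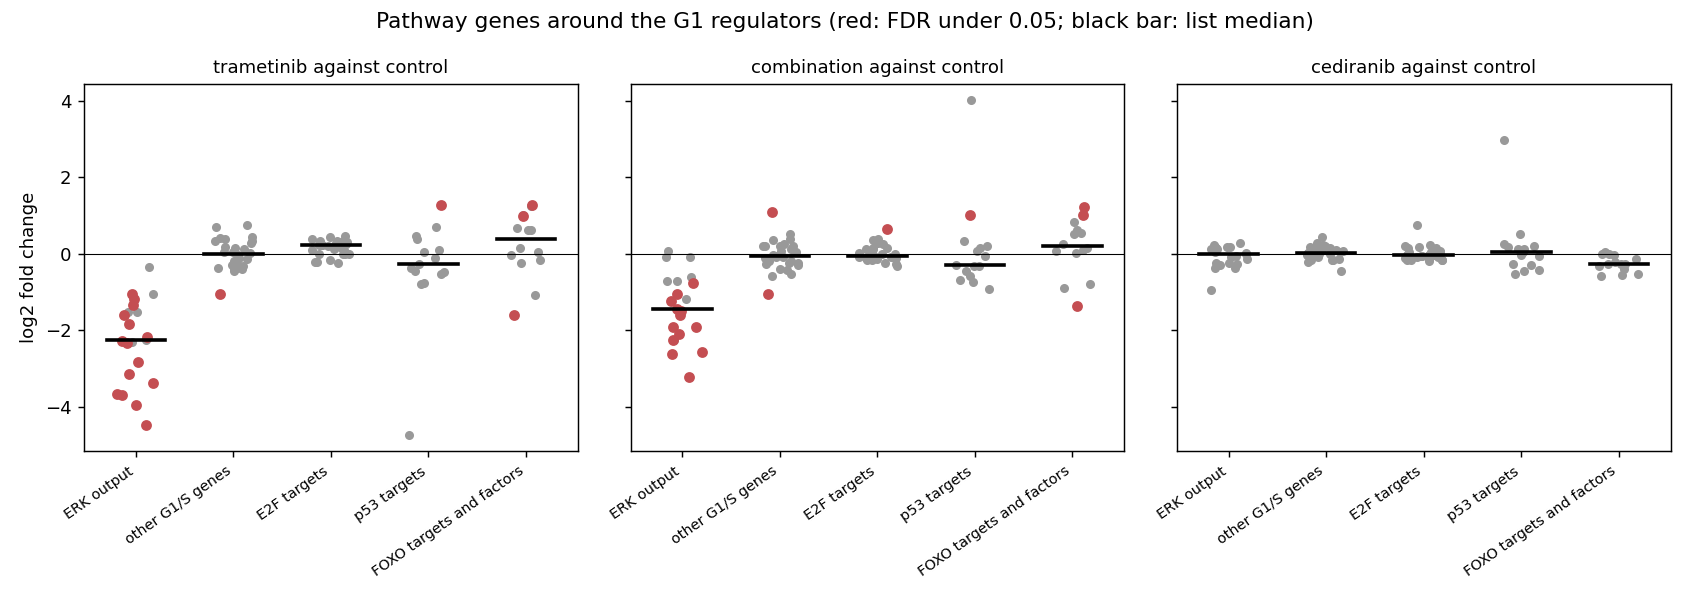
Fitted log2 fold change of each tested gene (points, jittered sideways) of 5 pathway lists in the 3 comparisons with control, with the list median (black bar) and genes past an FDR of 0.05 in red. The ERK output medians are -2.26 with trametinib and -1.44 with the combination, while the medians of the other G1/S genes and the E2F targets lie between -0.06 and 0.21 in these comparisons.

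A further 2 lists hold genes tied to the inhibitors. Of 15 tested p53 targets, a group to which Cdkn1a belongs by function, 1 rose and 0 fell both with trametinib and with the combination, with medians of -0.28 and -0.31. The gene was Sesn1, a stress-response gene shared with the FOXO list, which rose by 1.28 (SE 0.213, edgeR FDR 0.00432) and by 1.01 (edgeR FDR 0.0132). Plk2, a p53 target kinase, fell by 1.38 between trametinib and combination treated tumors (SE 0.266, edgeR FDR 0.0399). Of 14 tested FOXO targets and factors, a group tied to Cdkn1b as a classical FOXO target, 2 rose and 1 fell both with trametinib and with the combination against control, while 0 passed with cediranib. Against cediranib treated tumors, 5 of these 14 rose and 1 fell with the combination, and 3 rose and 1 fell with trametinib. The shares of all genes past the FDR given above, 6.11%, 9.97%, 7.68% and 8.65%, are the background of these counts. Foxo3 rose by 0.98 with trametinib (SE 0.204, edgeR FDR 0.0143), from 129 to 177 CPM in control to 263 to 351 CPM. Foxo1 rose by 1.22 with the combination (SE 0.276, edgeR FDR 0.0188), and Sesn1 rose in both. Trib1 fell by 1.6 with trametinib (edgeR FDR 0.00031) and by 1.37 with the combination (edgeR FDR 0.00103).

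The genes whose pattern over the 12 tumors was most like that of each of the 4 passing genes were ranked by Pearson correlation of log2 CPM, as a description. Tumors with and without trametinib form separate sets for Ccnd1 and Cdkn2c, so these values measure likeness to that division and are given without a test. For Ccnd1 they were Itga6 (r = 0.986), which encodes an integrin subunit, Rhbdf2 (0.981) and 1700006J14Rik (0.979). For Cdkn2c they were Slc6a9 (0.972), a glycine transporter gene, Msl1 (0.958) and Gm26786 (0.957). For Cdk6 they were Chic1 (0.954), H2afy3 (0.935) and Cfap69 (0.933), and for Cdkn1b Gna11 (0.939), a G protein subunit gene, Asf1a (0.933) and Gm28501 (0.926).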

How the data were processed

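RNA of 12 SVR xenograft tumors was captured with exome probes and sequenced, and samples were grouped by title and treatment label, with 0 table columns left over. The authors aligned reads to GRCm38 with STAR 2.7.1a, after bcl2fastq 1.8.4, and used featureCounts 1.6.0 to count reads in genes. The deposited values were raw counts per gene, and a gene length in bases stood beside them. Annotation release and strand setting: not given in the sources used here. Because the kit selects coding exons with probes, a count compares tumors better than genes. The 10 genes, the gene lists and the tests were chosen with earlier results of these data known.

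Counts were filtered with filterByExpr (minimum count 10, minimum total 15), scaled with TMM (factors 0.908 to 1.10) and tested in edgeR 4.0.16 (R 4.3.3) by quasi-likelihood, all 12 libraries in 1 fit. FDR is the Benjamini-Hochberg value over the 12897 genes tested. "Passed" means FDR under 0.05, and "called" also a log2 fold change of 1.5 or more in size, as in the study's methods. CPM used TMM-scaled library sizes and log2 CPM a prior count of 2. Between genes, CPM per kilobase of the deposited length was used, which equals the exon union of GENCODE M21 for 9 of the 10 genes. At a count of 0 the limit is 3 counts. Such limits cover counting error only, since these reads carry no molecular identifiers and are not independent molecules. The SD given with D cyclin shares is the spread over the 3 tumors of a group.

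Text genes were the 10 members, list genes past the FDR (for lists other than G1/S, up to 4 by p in the comparisons of trametinib or the combination with control and with each other) and the 3 genes nearest in correlation to each member that passed. Hmga2 was added after its value was seen, to complete a count. Alternatives were DESeq2 1.42.0, DESeq2's size factors in edgeR, library totals, no filter, the likelihood ratio test, fits of 2 groups, a replicate block, an epidermal score (mean log2 CPM of 14 epidermal genes other than keratins) as covariate, and leaving out each tumor. Leaving out the 2 muscle-rich tumors together was chosen after seeing the data. The fitting code was tested on simulated data. Replicate numbers do not pair tumors (3 of 18 same-numbered pairs with a correlation over 0.1, from -0.219 to 0.356). No 2 libraries were identical.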

Additional observations from a re-analysis of the deposited data

How the results depend on the processing

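With 3 tumors a group and libraries of similar depth, the lowest genes (Ccnd2, Cdkn1a and Cdkn2d) limit what can be said, and exome capture, the unstated strand setting and the mixture of tumor, skin, muscle and stroma limit the rest. Ccnd1 passed in 15 of 15 alternatives in each of trametinib against control (-2.37 to -2.17), combination against control (-1.77 to -1.47), combination against cediranib and trametinib against cediranib. Cdkn2c passed in 15 of 15 for trametinib against control (1.01 to 1.49) and in 14 of 15 for combination against control. Replicate numbers do not pair the tumors, and with the replicate number as a block Ccnd1 was -2.30 and Cdkn2c 1.19 for trametinib against control. The block moved none of the 10 genes across the FDR threshold, and for trametinib against control it left 301 of all genes called.

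The counts of the 10 genes changed as follows, and the cause was not tested. For trametinib against control with no filter, 2 were called and 4 passed (Ccnd2 and Cdk6 added). For combination against control, 0 were called with library totals and 0 without the 2 muscle-rich tumors, since Ccnd1 then lay just inside the limit of 1.5, and 1 passed with the epidermal score. For combination against trametinib, 1 passed with library totals, 2 with no filter (Ccnd1 and Cdk6), 1 by DESeq2 and 1 by the likelihood ratio test. For combination against cediranib, Cdkn1b came to pass with no filter, by DESeq2 and by the likelihood ratio test, so that up to 3 passed. With the epidermal score 1 passed against cediranib, both for the combination and for trametinib. Leaving out 1 tumor at a time, the number called for combination against control was 0 to 1 (0 without control tumor 2), the number passing for combination against cediranib was 1 to 2 (1 without cediranib tumors 1 or 2 or combination tumor 3), and that for trametinib against cediranib was 1 to 4 (1 without trametinib tumor 3 or cediranib tumor 1). Shares of the D cyclin sum not divided by length were, for control, trametinib, cediranib and combination treated tumors, 76.6%, 46.2%, 80.2% and 49.8% for Ccnd1, 20.7%, 51.1%, 18.2% and 48.0% for Ccnd3, and 2.71%, 2.67%, 1.65% and 2.17% for Ccnd2.

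Signs turned in 54 of the alternative values of single genes, against 1014 that kept direction and side of the FDR threshold, 10 that came to pass and 17 that no longer passed, and every turned value belonged to a difference that had not passed. With the epidermal score the turned values were 0.028 for Ccnd2 and -0.12 for Cdkn2c (cediranib against control), -0.45 for Cdk6 and 0.16 for Cdkn1a (combination against control), -0.25 for Cdk6 and 0.89 for Cdkn1a (combination against trametinib), and -0.35 for Cdk6 and 0.37 for Cdkn1a (interaction). Trametinib and combination treated tumors were separated completely by the score from each other and from the other tumors. Its values in comparisons of these groups therefore do not bear on direction. For combination against trametinib, Cdkn2c turned to 0.0117 with DESeq2's size factors, 0.12 with library totals, 0.018 with no filter, 0.013 by DESeq2 and 0.0092 with 2 groups in the fit. The interaction of Rb1 turned to 0.099 with library totals and 0.0098 with no filter. Without the muscle-rich tumors Cdkn2d turned to 0.82 (trametinib against control), 0.73 (cediranib against control), 0.0029 (combination against control) and 0.093 (trametinib against cediranib), and Cdk6 to -0.025 (combination against control).

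Leaving out 1 tumor at a time gave these ranges where a sign turned. For trametinib against control they were -1.20 to 0.51 for Cdkn2d and -0.0896 to 0.26 for Rb1. For cediranib against control they were -0.21 to 0.0801 for Ccnd3, -0.11 to 0.039 for Cdk4, -0.21 to 0.38 for Cdkn1a, -0.10 to 0.30 for Cdkn2c, -0.53 to 0.73 for Cdkn2d and -0.016 to 0.40 for Rb1. For combination against control they were -0.028 to 0.44 for Cdk6 and -1.26 to 0.00102 for Cdkn2d. For combination against trametinib they were -0.13 to 0.63 for Ccnd2, -0.21 to 0.24 for Cdkn2c and -0.82 to 0.27 for Cdkn2d. For combination against cediranib the range was -0.13 to 0.28 for Rb1. For trametinib against cediranib they were -1.0 to 0.0906 for Cdkn2d and -0.31 to 0.088 for Rb1. For the interaction they were -0.042 to 0.47 for Cdk6, -0.066 to 0.37 for Cdkn1b, -0.35 to 0.11 for Cdkn2c, -1.24 to 0.47 for Cdkn2d and -0.22 to 0.21 for Rb1.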
